A study of Arabidopsis thaliana with 32 samples.

Results

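AT3G11385 and AT5G19190 are protein-coding genes of *Arabidopsis thaliana* that carry only a locus tag in the gene tables used here, with no symbol and no stated role. Each was measured by 1 probe set, the set of array probes summarised into 1 value (13426807 for AT3G11385 and 13503355 for AT5G19190), out of 28285 genes tested. Of these 28285 entries 16554 carry the name of 1 gene. The others are probe sets that list no gene or several, and they are counted here as genes. AT3G11385 and AT5G19190 were selected on their measured log2 levels, because those under ethylene glycol stood above those under sorbitol, NaCl and polyethylene glycol 8000 (PEG). All values that compare these solutes in the members are therefore descriptions, and no test is given for them. A description as genes whose level is kept by ethylene glycol matched AT5G19190, which stayed close to the control under this solute. It matched AT3G11385 less well, since all 8 ethylene glycol arrays lay above the control array of the same run.

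Roots of wild-type Columbia-0 plants, 16 days old and grown in hydroponic solution, were collected 15 min after transfer to new solution. The treated groups received ethylene glycol (50, 100, 150 or 200 mM), PEG (75, 100, 125 or 150 mM), NaCl (25, 50, 75 or 100 mM) or sorbitol (50, 100 or 150 mM), and the control group received the solution alone. Each of the 16 groups had 2 arrays, 32 in all. The sample titles run in 2 blocks of numbers, each with 1 array of every group, called here the first and the second run. All plants share 1 genotype, and the labels do not say whether both arrays of a group stem from separate plants or cultures, so SE and p-values cover only the spread between these samples and may be technical.

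A solute outside the root draws water from its cells and lowers their turgor, the pressure of the cell on its wall. Ethylene glycol crosses plant membranes readily, so turgor can recover while the osmotic potential of the cell stays lowered. Sorbitol and PEG enter much less, and NaCl also brings ions. The study's title sets early responses to turgor apart from responses to osmotic potential. The dose scale is the nominal one of the labels, and for a polymer as large as PEG 8000 the stated molar doses would be very concentrated.

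Array medians lay between 4.17 and 4.24 in the first run and between 4.11 and 4.19 in the second, and no 2 arrays were identical. Arrays of 1 run correlated across genes at 0.981 or more, and arrays of different runs at 0.978 or less. For this reason the fit carried the run as a block, and differences between solutes are also given within each run. Of 10 root marker genes 1 had a probe set listing it alone, EXPA7, an expansin of root hair cells, which lay between 6.57 and 8.08 on all arrays. None of the 6 shoot markers had such a probe set, so the tissue check rests on 1 gene.

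AT3G11385 was highest under ethylene glycol and lowest under sorbitol, with NaCl and PEG between them. The RNA came from whole roots, so fewer cells of a type and less RNA per cell cannot be told apart in any value here. Ethylene glycol arrays read, in the first and second run, 5.21 and 5.46 log2 units for 50 mM, 5.28 and 5.63 for 100 mM, 5.44 and 5.27 for 150 mM, and 5.36 and 5.48 for 200 mM. The control arrays read 5.07 and 5.04. Every ethylene glycol array thus exceeded both control arrays, by 0.14 to 0.59 within a run, and the 4 dose means spanned only 0.12, from 5.335 at 50 mM to 5.455 at 100 mM.

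Under sorbitol AT3G11385 read 4.40 and 4.19 for 50 mM, 4.24 and 4.70 for 100 mM, and 4.66 and 4.42 for 150 mM. All 6 sorbitol arrays lay below both controls, and the lowest group mean, 4.295, belonged to the lowest dose. With NaCl the gene read 4.81 and 5.15 for 25 mM, 4.66 and 4.82 for 50 mM, 4.38 and 4.80 for 75 mM, and 4.57 and 4.93 for 100 mM. Only the second-run array at 25 mM exceeded its control, and the other 7 NaCl arrays lay below theirs.

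For PEG the AT3G11385 values were 4.76 and 5.30 for 75 mM, 4.86 and 4.89 for 100 mM, 5.06 and 4.82 for 125 mM, and 4.59 and 5.21 for 150 mM. These 8 arrays straddled the control, with 6 below it and 2 above. The first-run PEG mean was 4.818, against 5.07 in the first-run control, and the second-run PEG mean was 5.055, against 5.04 in the second-run control.

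AT5G19190 showed a flat level under ethylene glycol and lower levels under the other 3 solutes. Its ethylene glycol arrays read 5.01 and 4.53 for 50 mM, 5.16 and 4.52 for 100 mM, 5.05 and 4.46 for 150 mM, and 5.17 and 4.38 for 200 mM, in the first and second run. Control arrays read 5.01 and 4.52. The ethylene glycol arrays lay within 0.16 of the control of their run, 4 above it, 2 below it and 2 equal to it, and the dose means spanned 0.085.

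Sorbitol arrays of AT5G19190 read 4.65 and 3.67 for 50 mM, 4.51 and 3.40 for 100 mM, and 4.08 and 3.75 for 150 mM. The NaCl arrays read 4.78 and 4.05 for 25 mM, 4.28 and 3.77 for 50 mM, 4.51 and 3.57 for 75 mM, and 4.69 and 3.87 for 100 mM. All 6 sorbitol and all 8 NaCl arrays were below the control of their run. PEG arrays read 5.07 and 4.20 for 75 mM, 4.80 and 3.89 for 100 mM, 4.45 and 3.67 for 125 mM, and 4.92 and 3.82 for 150 mM, and 7 of these 8 were below the control of their run.

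**Figure D1:**
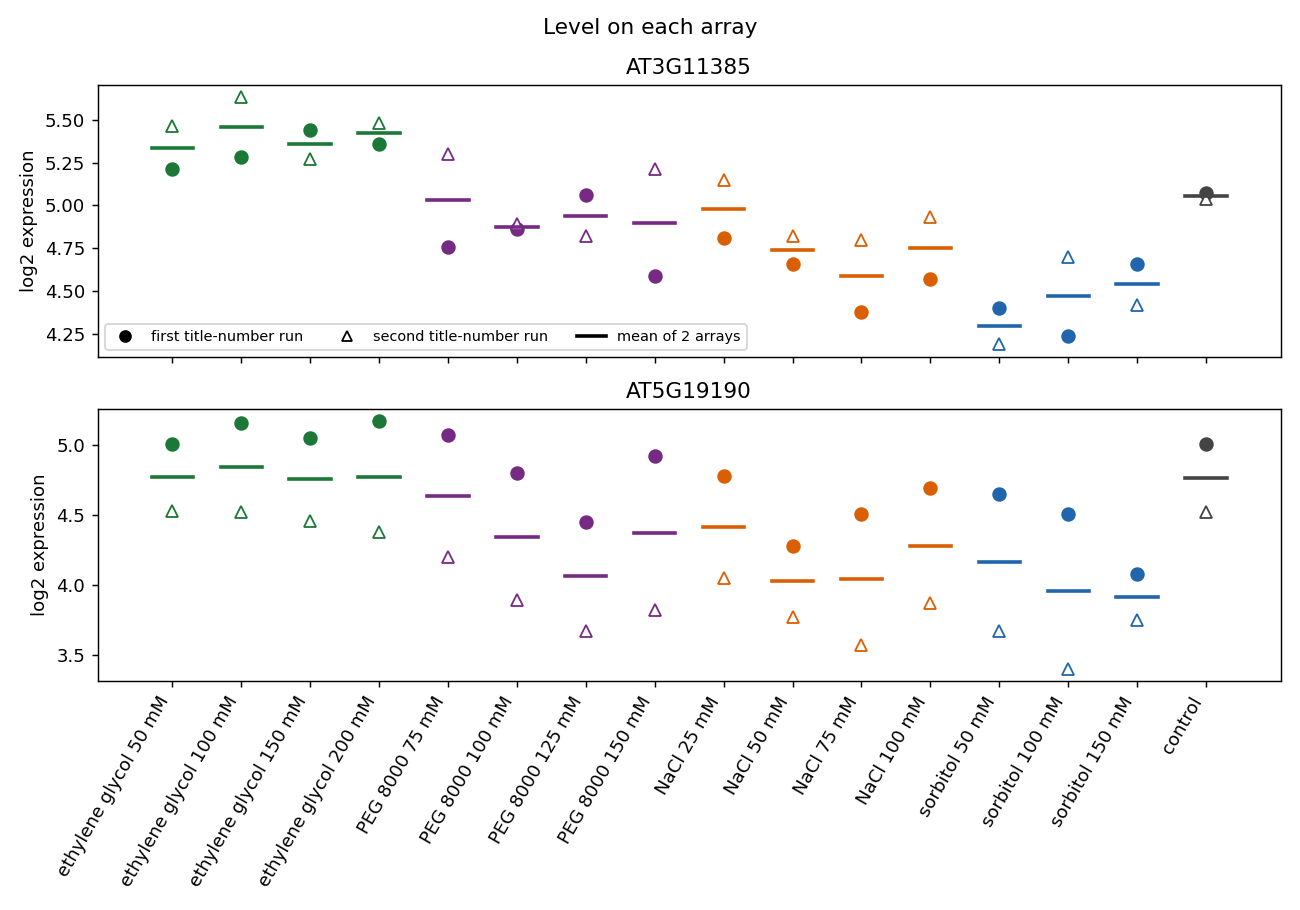
Log2 expression (vertical axes) of AT3G11385 (top) and AT5G19190 (bottom) on each of the 32 arrays, by solute and nominal dose; filled circles are the first run, open triangles the second, and bars the mean of 2 arrays. AT3G11385 had its 8 ethylene glycol arrays above both controls, and AT5G19190 lay lower in the second run in all 16 groups.

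Ordered by group mean, the 4 ethylene glycol doses of AT3G11385 came first, from 5.455 at 100 mM to 5.335 at 50 mM, and the control followed at 5.055. PEG at 75 mM (5.03), NaCl at 25 mM (4.98) and PEG at 125 mM (4.94), 150 mM (4.90) and 100 mM (4.875) came next. NaCl at 100 mM (4.75), 50 mM (4.74) and 75 mM (4.59) followed, ahead of sorbitol at 150 mM (4.54), 100 mM (4.47) and 50 mM (4.295). After each run was centred on its own mean, neighbours in this order did not overlap at 2 of the 15 steps: ethylene glycol 50 mM against the control, a gap of 0.28, and NaCl 50 mM against NaCl 75 mM, a gap of 0.15. At the other 13 steps the 2 arrays of 1 group overlapped those of the next.

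In AT5G19190 the order began with ethylene glycol at 100 mM (4.84), 200 mM (4.775) and 50 mM (4.77), the control (4.765) and ethylene glycol at 150 mM (4.755). PEG at 75 mM (4.635) followed, then NaCl at 25 mM (4.415), PEG at 150 mM (4.37) and 100 mM (4.345), NaCl at 100 mM (4.28) and sorbitol at 50 mM (4.16). The lowest were PEG at 125 mM (4.06), NaCl at 75 mM (4.04) and 50 mM (4.025) and sorbitol at 100 mM (3.955) and 150 mM (3.915). With the runs centred, 1 of 15 steps showed no overlap, that of 0.22 between PEG 75 mM and NaCl 25 mM. The residual SD within groups and runs was 0.204 for AT3G11385 and 0.163 for AT5G19190, beside a median of 0.190 over all genes. Group means ranged over 1.16 and 0.925 log2 units in the 2 genes.

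Ethylene glycol was set against sorbitol at the 3 doses both share, a comparison of a readily entering with a poorly entering uncharged solute. AT3G11385 averaged 5.382 with ethylene glycol and 4.435 with sorbitol, a log2 difference of 0.95 (SE 0.11, 6 arrays against 6), or 1.93-fold. The difference was 0.877 in the first run and 1.017 in the second, and it was 1.04 at 50 mM, 0.985 at 100 mM and 0.815 at 150 mM. No sorbitol array reached the lowest ethylene glycol array, with ranges of 5.21 to 5.63 over all ethylene glycol arrays and 4.19 to 4.70 over all sorbitol arrays. Among the 28285 genes, ranked by estimate alone, this was the largest positive difference between these solutes. The gene was chosen on this contrast, so the rank is a description.

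AT5G19190 averaged 4.788 with ethylene glycol and 4.01 with sorbitol, a log2 difference of 0.78 (SE 0.11, 6 arrays against 6), or 1.72-fold. By run it was 0.66 and 0.897, and by dose 0.61 at 50 mM, 0.885 at 100 mM and 0.84 at 150 mM. The pooled ranges overlapped, because the runs lay so far apart. Within the first run ethylene glycol spanned 5.01 to 5.17 and sorbitol 4.08 to 4.65, and within the second 4.38 to 4.53 and 3.40 to 3.75. The gene stood 6th from the top of the same ranking, and it too was chosen on this contrast.

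Against NaCl at equal nominal osmolarity, which pairs each ethylene glycol dose with the NaCl dose that gives the same number of dissolved particles, AT3G11385 averaged 5.391 with ethylene glycol and 4.765 with NaCl. This is a log2 difference of 0.63 (SE 0.10, 8 arrays against 8), 0.718 in the first run and 0.535 in the second. For AT5G19190 the means were 4.785 with ethylene glycol and 4.19 with NaCl, a log2 difference of 0.60 (SE 0.09), 0.532 and 0.657 by run. In both genes no NaCl array reached the ethylene glycol range of its own run. The smallest of the 4 paired differences was that of ethylene glycol 50 mM against NaCl 25 mM, at 0.355 in both genes. The largest were 0.765 in AT3G11385, at ethylene glycol 150 mM against NaCl 75 mM, and 0.815 in AT5G19190, at ethylene glycol 100 mM against NaCl 50 mM. At the shared doses of 50 and 100 mM the log2 difference in AT3G11385 was 0.65 (SE 0.14), 0.63 in the first run and 0.67 in the second. In AT5G19190 it was also 0.65 (SE 0.13), 0.60 in the first run and 0.705 in the second.

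The difference from PEG, at the shared doses of 100 and 150 mM, was the smallest estimate of the 3 in both genes, although the doses compared differ. In the first run of AT3G11385 it was not smaller than that from NaCl at shared doses, 0.635 against 0.63. AT3G11385 averaged 5.405 with ethylene glycol and 4.888 with PEG, a log2 difference of 0.52 (SE 0.14, 4 arrays against 4), 0.635 in the first run and 0.40 in the second. At 150 mM it was 0.85 in the first run but 0.06 in the second. AT5G19190 averaged 4.797 with ethylene glycol and 4.358 with PEG, a log2 difference of 0.44 (SE 0.13), 0.245 in the first run and 0.635 in the second. Over all doses 1 of 4 PEG arrays reached the ethylene glycol range within a run: in the second run for AT3G11385, at 75 mM, and in the first run for AT5G19190, also at 75 mM.

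**Figure D2:**
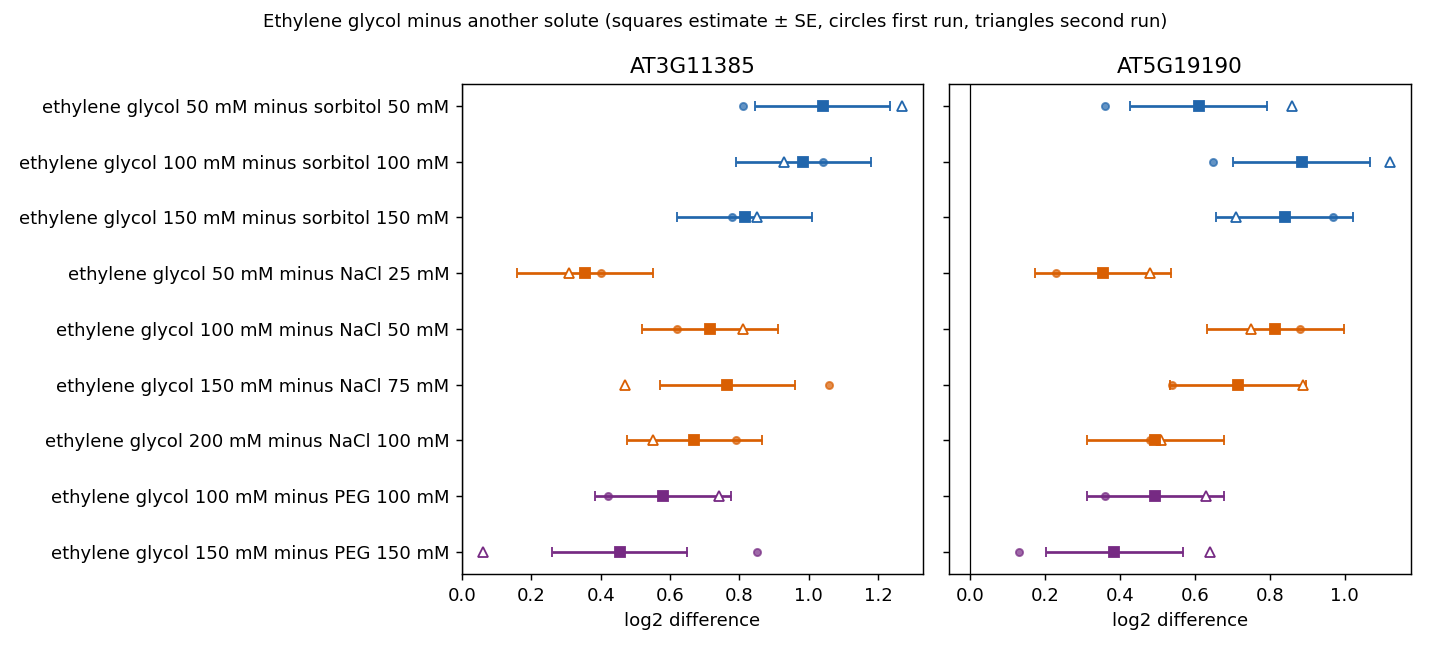
Log2 difference (horizontal axes) of ethylene glycol minus sorbitol or PEG at the same dose, or minus NaCl at equal nominal osmolarity, for AT3G11385 (left) and AT5G19190 (right); squares with bars are estimates ± SE, circles the first run and triangles the second. Every point is above 0, and the value nearest to 0 is that of AT3G11385 against PEG 150 mM in the second run, 0.06.

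The other 3 solutes, which share arrays with the comparisons above, were also set beside each other. In both genes and in both runs the solute means over all doses ran PEG, then NaCl, then sorbitol, high to low, although the doses behind these means differ. At shared doses AT3G11385 was 0.36 higher with NaCl than with sorbitol (SE 0.14; means 4.745 and 4.383), by 0.295 in the first run and 0.43 in the second. It was 0.38 higher with PEG than with sorbitol (SE 0.14; means 4.888 and 4.505), by 0.275 and 0.49 in the first and second run. Its PEG level was 0.28 above that with NaCl (SE 0.14; means 4.952 and 4.67), 0.335 and 0.23 by run, and 0.184 above it without the second-run PEG 75 mM array. AT5G19190 was 0.42 higher with PEG than with sorbitol (SE 0.13), by 0.565 in the first run and 0.28 in the second. Its PEG level was 0.33 above that with NaCl (SE 0.13), 0.335 and 0.325 by run. NaCl minus sorbitol in this gene was 0.095 (SE 0.13; means 4.152 and 4.058), -0.095 in the first run and 0.285 in the second, and it was 0.00017 without the second-run sorbitol 100 mM array and 0.19 without the first-run one.

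Set against the control, the average over ethylene glycol doses was 0.34 higher for AT3G11385 (SE 0.15, 8 arrays against 2; means 5.391 and 5.055), by 0.252 in the first run and 0.42 in the second. In AT5G19190 it differed by 0.02 (SE 0.14; means 4.785 and 4.765), by 0.088 in the first run and -0.047 in the second, and by -0.121 without the first-run control array and 0.161 without the second-run one. Sorbitol averaged -0.62 from the control in AT3G11385 (SE 0.16, 6 arrays against 2), -0.637 in the first run and -0.603 in the second, a level 1.54-fold lower. In AT5G19190 the sorbitol average was -0.76 (SE 0.15), -0.597 and -0.913 by run, or 1.69-fold lower. Both genes thus lay below the control under sorbitol in each run.

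The NaCl and PEG averages of AT3G11385 and the PEG average of AT5G19190 depended more on the run than the sorbitol average of the same gene. For AT3G11385 NaCl averaged -0.29 from the control (SE 0.15), -0.465 in the first run but -0.115 in the second, and -0.182 without the first-run control array. PEG averaged -0.12 (SE 0.15) in this gene, -0.253 in the first run and 0.015 in the second, and it was -0.227 without the second-run control array and -0.011 without the first-run one. For AT5G19190 NaCl averaged -0.575 (SE 0.14), -0.445 in the first run and -0.705 in the second. Its PEG average was -0.41 (SE 0.14), -0.20 in the first run and -0.625 in the second, and -0.2715 without the second-run control array. All solutes were set against the same 2 control arrays, so an error in these would move all averages of a gene together.

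Among the treated doses alone, no slope of either gene on dose lay more than 2 SE from 0. With the control at 0 mM, AT5G19190 had slopes in log2 units per 100 mM of -0.55 for sorbitol (SE 0.12), -0.54 for NaCl (SE 0.16), -0.38 for PEG (SE 0.11) and 0.001 for ethylene glycol (SE 0.08). Without the control these slopes were -0.25 (SE 0.18), -0.16 (SE 0.23), -0.43 (SE 0.23) and -0.01 (SE 0.12). AT3G11385 had slopes of -0.27 for sorbitol (SE 0.12), -0.40 for NaCl (SE 0.17), -0.11 for PEG (SE 0.12) and 0.15 for ethylene glycol (SE 0.09) with the control. Single arrays moved some of these: the sorbitol slope was -0.142 without the second-run array at 150 mM and -0.406 without the first-run one, and the PEG slope was -0.219 without the second-run array at 150 mM and -0.0032 without the first-run one. By run the NaCl slope of AT3G11385 was -0.572 and -0.228, and its PEG slope -0.201 and -0.022, in the first and second run. In AT5G19190 the NaCl slope was -0.364 and -0.712 by run and the PEG slope -0.211 and -0.553. The sorbitol slope of AT3G11385 over the treated doses had the other sign, 0.25 (SE 0.20), since the 50 mM group of this gene was its lowest. In NaCl the lowest group was 75 mM for AT3G11385 and 50 mM for AT5G19190, and in PEG AT5G19190 was lowest at 125 mM.

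**Figure D3:**
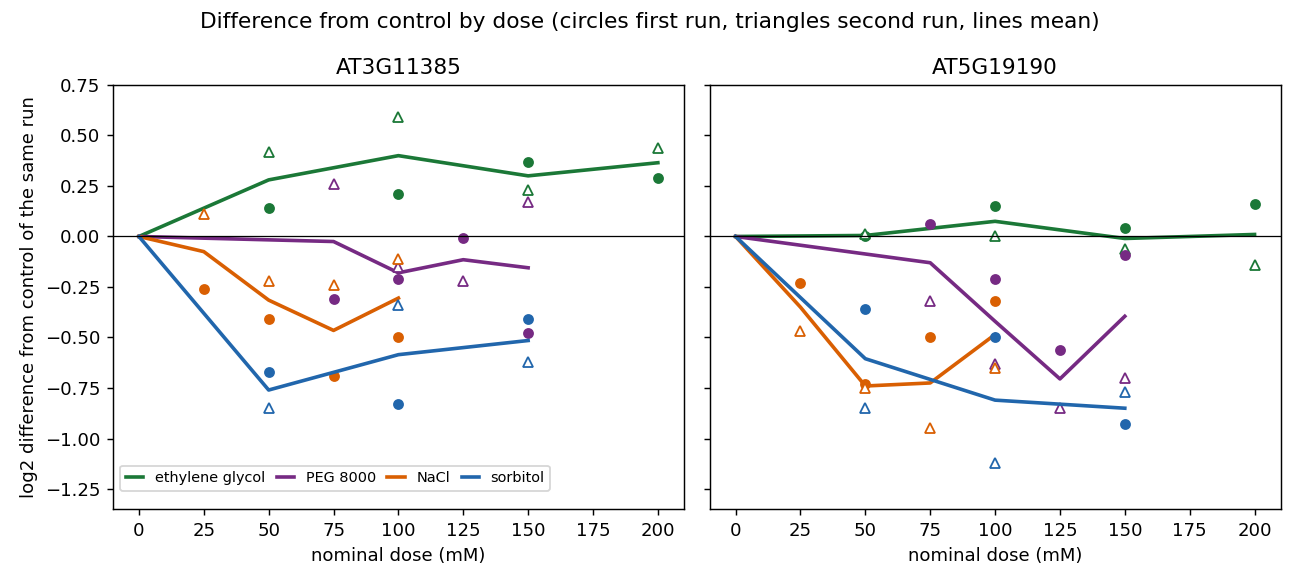
Log2 difference from the control array of the same run (vertical axis) by nominal dose in mM (horizontal axes), for AT3G11385 (left) and AT5G19190 (right); circles are the first run, triangles the second and lines the mean of both. Ethylene glycol lay above the control at every dose in AT3G11385 and within 0.16 of it in AT5G19190, while the sorbitol arrays of both genes lay below 0.

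The run was the 1 factor that the choice of the genes did not use, since each run holds every group once. AT5G19190 fell in the second run in all 16 groups, by 0.33 to 1.11 on each pair of arrays. It averaged 4.004 ± 0.379 in the second run and 4.759 ± 0.326 in the first (SD over 16 arrays of different groups), a log2 difference of -0.75 (SE 0.06, limma adjusted p = 6.32e-11) or a 1.69-fold fall. In the same test 28.2% of all genes were lower in the second run and 34.6% higher, 62.8% in all, so a call here is common. AT3G11385 rose by 0.17 (SE 0.07, limma adjusted p = 0.032) to 5.007 ± 0.389 in the second run, against 4.834 ± 0.368 in the first, with 11 of 16 groups higher and 5 lower. That call was lost without either array of NaCl 25, 75 or 100 mM, sorbitol 100 mM, PEG 75 or 150 mM, or ethylene glycol 100 mM, left out 1 at a time (adjusted p up to 0.0732). What differed between the runs is not given in the sources used here.

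**Figure D4:**
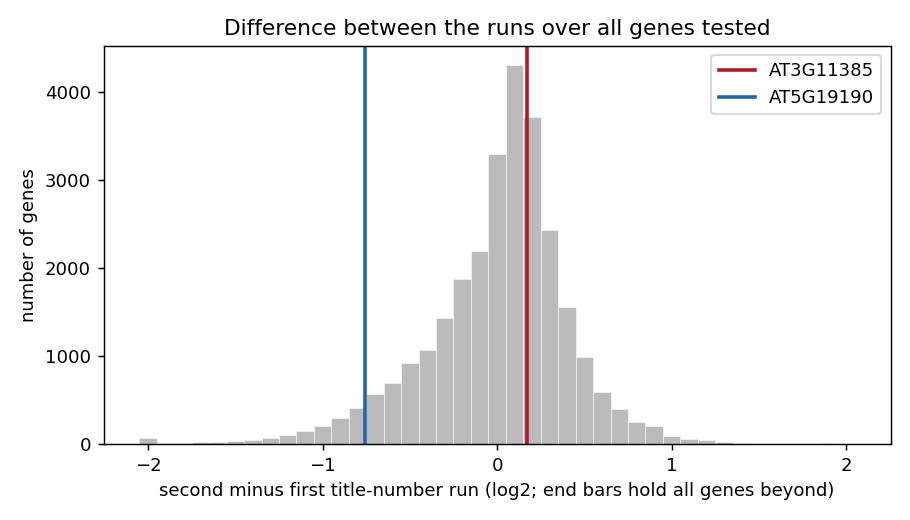
Number of genes (vertical axis) by log2 difference of the second minus the first run (horizontal axis), over the 28285 genes tested, with lines for the 2 genes. AT5G19190 lies in the lower tail at -0.75 and AT3G11385 at 0.17, near the median of all genes, 0.0644.

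The 16 group means of the 2 genes had a Pearson r of 0.879, with 0.623 over the 16 first-run arrays and 0.78 over the 16 second-run arrays. Both were chosen for the same contrast and were read on the same arrays, so this is a description. Of the 16553 named genes compared, AT5G19190 stood 5th in likeness to AT3G11385, and AT3G11385 stood 9th in likeness to AT5G19190. An r over 0.8 was reached by 53 named genes for AT3G11385 and 57 for AT5G19190, beside medians of -0.0498 and -0.0463.

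The gene most like AT3G11385 was BIM1, a basic helix-loop-helix factor of brassinosteroid signalling (r = 0.898). BIM1 averaged 8.596 under ethylene glycol, 8.467 under PEG, 8.381 under NaCl and 8.27 under sorbitol, with 8.565 in the control, so its group means spanned 0.385 log2 units against 1.16 in AT3G11385. AT1G34110 (r = 0.895), AT5G26850 (0.889) and AT1G33470 (0.880) followed, with spans of 0.42, 0.315 and 0.235. The genes most unlike it were AT2G20605 (r = -0.869), AT2G03565 (-0.866) and WAG2, a protein kinase that acts on auxin transporters (-0.860). WAG2 averaged 4.03 under ethylene glycol, 4.421 under PEG, 4.33 under NaCl and 4.737 under sorbitol, against 4.23 in the control. AT2G03565 was low, at 2.111 under ethylene glycol and 2.732 under sorbitol.

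For AT5G19190 the likest gene was BZIP61, a basic leucine zipper factor (r = 0.937), at 7.959 under ethylene glycol, 7.734 under PEG, 7.611 under NaCl and 7.557 under sorbitol, with 8.09 in the control. The plastid gene psbI, for a small subunit of photosystem II, came next (r = 0.918), over a span of only 0.235. AT3G06070 (r = 0.896) was the 1 gene of these 5 with a span as wide as that of AT5G19190 (0.945). It averaged 4.479 under ethylene glycol, 4.059 under PEG, 4.009 under NaCl and 3.802 under sorbitol, with 4.59 in the control, and its ethylene glycol minus sorbitol difference, 0.78, equalled that of AT5G19190. AT1G54610 (0.894) and AT2G34190 (0.889) completed the 5, and AT2G31620 (-0.925), AT1G51900 (-0.891) and AT3G19274 (-0.880) were the most unlike. These last genes were low, under array medians of 4.11 or more. They averaged 1.294, 1.564 and 2.161 under ethylene glycol and 1.558, 1.898 and 2.73 under sorbitol. All correlations given here share arrays, runs and the control, and some hold less well within a run. With AT5G19190, psbI had 0.877 in the first run and 0.422 in the second, and AT3G06070 had 0.493 and 0.829. With AT3G11385, AT5G26850 had 0.838 and 0.464. The likest gene of each held better, BZIP61 with 0.879 and 0.796 and BIM1 with 0.869 and 0.786.

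**Figure D5:**
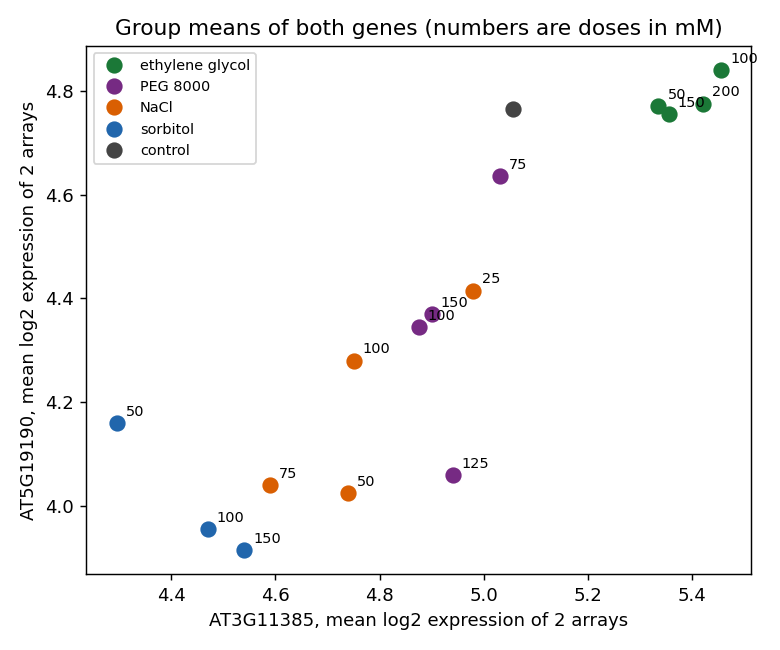
Mean log2 expression of 2 arrays in each of the 16 groups, AT3G11385 on the horizontal and AT5G19190 on the vertical axis; colours are solutes and numbers are nominal doses in mM. The 4 ethylene glycol groups lie at the upper right, the sorbitol groups at the lower left, and the control level with ethylene glycol in AT5G19190 but 0.28 or more below it in AT3G11385.

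The nearest genes in the gene table, 3 on each side, were examined to see whether the pattern reached beyond each locus. Of the 12 neighbours 6 had a probe set of their own, 4 beside AT3G11385 and 2 beside AT5G19190. In limma 0 of these 6 were called for ethylene glycol minus sorbitol (0.315% of all genes were). At an unadjusted p under 0.05 there were 0 of the 6, beside 4484 of the 28285 genes. Without the run in the fit 0 of the 6 were called, beside 1 of all genes. AT3G11380 and AT3G11390, the genes on either side of AT3G11385, differed by -0.18 (SE 0.13) and 0.17 (SE 0.13). TSC10B, for a reductase of sphingolipid synthesis and next to AT5G19190, differed by 0.16 (SE 0.18). AT3G11350, AT3G11380 and TSC10B had low mean levels, 2.007, 2.03 and 2.522, under array medians of 4.11 or more, where a fall would be harder to see. Both measured neighbours of AT5G19190, TSC10B and AT5G19210, lay on the same side of it. ECR1, next to it on the other side, had no probe set of its own. Against NaCl at equal nominal osmolarity and against PEG limma also called 0 of the 6 (0.537% and 0.131% of all genes). In each, 1 of the 6 had an unadjusted p under 0.05, beside 4269 and 4144 of the 28285 genes. Without the run 0 of the 6 were called in either, beside 0 and 2 of all genes. Between the runs 5 of the 6 were called, 4 higher and 1 lower in the second run, beside 62.8% of all genes.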

How the data were processed

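The authors deposited log2 expression values for 28477 probe sets on 32 arrays. GCRMA, Affymetrix Expression Console and Transcriptome Analysis Console were used, per the submitters' processing notes, with no versions named. The log2 unit was read from the range of the values, 0.2 to 12.45. The sources used here give neither the log base nor any step that scales arrays to each other, and another base would change each fold.

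The array annotation named the probe sets (16746 list 1 gene, 758 several, 10973 none), and a RefSeq table (TAIR10.1) served for symbols and gene order only. Per named gene the probe set with the highest mean was kept, which set 192 aside and left 28285 entries, 16554 of them with 1 gene name. Each probe set that lists no gene or several stayed as an entry of its own, counted as a gene. limma 3.58.1 in R 4.3.3 fitted 16 group means plus the run as replicate block (15 residual degrees of freedom), with variances moderated along the mean level and p-values adjusted by Benjamini-Hochberg over all genes, at 0.05. SE are from this fit. The code was tested on simulated data. The run pairs the arrays: second minus first differences correlated across genes in all 120 pairs of groups, at 0.501 to 0.767. It was taken from the title numbers, and the labels state no pairing.

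The members, lists and main fit were chosen with earlier results of these data known. Named genes were the members, for each the 5 named genes with the highest and 3 with the lowest r over group means, and 3 neighbours on each side. The planned C1 domain family, protein relatives and promoter motifs were not analysed here, since the tables used hold 0 such family names and no sequences. Alternatives were no block, quantile normalisation, median centring, a filter on dim genes, no trend, every probe set and leaving out each array in turn. Each run was also taken alone, a choice made after seeing the data.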

Additional observations from a re-analysis of the deposited data

Results flagged for a closer look

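AT3G11385 lay on opposite sides of the control under 2 solutes: all 8 ethylene glycol arrays lay above the control array of their run and all 6 sorbitol arrays below it. The averages were 0.34 for ethylene glycol and -0.62 for sorbitol on the log2 scale. The difference was not tested, since the gene was chosen on it.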

How the results depend on the processing

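Of 32 results for the 2 genes, 28 kept 1 sign under all their alternatives, and 11 of 594 alternative values had the other sign. These 11 belonged to the ethylene glycol average and slope of AT5G19190 (0.02 and 0.001, near 0), its NaCl minus sorbitol difference at shared doses and the PEG average of AT3G11385 (0.015 in the second run alone). Without the replicate block every difference kept its value and the error grew: for ethylene glycol minus sorbitol (0.947 and 0.778) the SE was 0.139 in AT3G11385 and 0.298 in AT5G19190. With each run alone, first and then second, AT5G19190 gave 0.245 and 0.635 for ethylene glycol minus PEG, and -0.095 and 0.285 for NaCl minus sorbitol at shared doses. It gave -0.20 and -0.625 for the PEG average, -0.211 and -0.553 for the PEG slope and -0.364 and -0.712 for the NaCl slope. The cause was not tested. The run difference of AT3G11385 lay between 0.143 and 0.20 with 1 array left out, and its call was lost in 14 of 32 such fits, each with fewer samples. Leaving out either array of a group gave the same estimate, so these are not 32 separate checks. After centring or quantile normalisation the run difference of this gene was up to 0.252. The run difference of AT5G19190 lay between -0.783 and -0.731 with 1 array left out and kept its call. Leaving out 1 control array moved the NaCl average of AT3G11385 to between -0.398 and -0.182 and its PEG average to between -0.227 and -0.011. The 2 arrays per group limit the precision of each level.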
